A study of Mus musculus with 468 samples.

Results

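The transcripts of B cells and of the antibody-secreting cells that B cells become were examined in the adipose tissue of outbred mice. The genes were chosen by symbol: Ms4a1, Cd79a, Cd79b, Cd22 and Ighm for B cells, Igkc and Jchain for antibody-secreting cells, and the T cell gene Cd3e as the gene they were compared with. The deposited table held a row for all 7 of them among its 23180 genes, and all 7 had 10 counts or more in 50% of the libraries or more, the filter that 18380 genes passed.

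The RNA came from adipose tissue of Diversity Outbred mice, a stock bred from inbred founder strains so that nearly every animal has its own genotype. The paper names the depot as the gonadal fat pad. All of them ate a diet high in fat and sugar (45% fat), begun per the methods at 4 weeks of age, and the methods give 22 weeks as the age at harvest and 18, 19 and 21 as the outbreeding generations. Each mouse gave 1 library, so there were no replicate libraries and every SD below is over mice. The labels gave no sex, generation or batch, and the libraries formed a single group with no untreated or other-diet control.

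B cells carry an immunoglobulin on their surface, and with the signalling proteins CD79A and CD79B it makes up the B cell receptor. When a B cell becomes a plasmablast or plasma cell, it loses much of its surface machinery, secretes immunoglobulin in bulk and makes the joining chain that links IgM and IgA into polymers. Adipose tissue holds B cells in its stroma and in small lymphoid clusters, and the visceral depots are known for B-1 cells, which make natural IgM.

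Totals ran from 35.3 M to 137.8 M expected counts per library (median 82.04 M), and no member's log2 CPM followed the log10 total (r from -0.034 to 0.002). The libraries separated into 51.5% with at least 7305 counts on Y chromosome genes and 48.5% with none. Xist had a median of 0.182 CPM in the first set (0.0 to 10.1 CPM). In the second set its median was 587.3 CPM (3.642 to 951.7 CPM). The paper's numbers of male and female mice with adipose data equal the sizes of these sets, so they are read as males and females. Values within each set are given below as descriptions. The adipocyte genes Adipoq (median 2103 CPM), Plin1 (1485 CPM), Fabp4 (9702 CPM) and Cidec (2170 CPM) were abundant, as the tissue label states. In whole tissue, fewer cells of a type and less RNA per cell cannot be told apart.

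Ms4a1 encodes CD20, a surface protein of B cells that plasma cells lack (ENSMUSG00000024673, chr19:11249675-11266241, GRCm38, minus strand, overlapped by 4930526L06Rik). Its level was 0.143 CPM (counts scaled to a common library total, with the library's TMM factor) in the lowest mouse, 2.82 CPM in the median mouse and 34.4 CPM in the highest. The lowest was mouse DO194 and the highest was DO476. The 95th percentile of the mice stood 16.5 times above the 5th.

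Cd79a (ENSMUSG00000003379, chr7:24897381-24902197, plus strand) and Cd79b (ENSMUSG00000040592, chr11:106311341-106314762, minus strand) encode the signalling pair of the B cell receptor. Cd79a ran from 0.262 CPM through a median of 2.85 CPM to 30.4 CPM. Cd79b ran from 0.0527 CPM through 2.02 CPM to 19.7 CPM. Both peaked in DO476, the mouse that was highest for Ms4a1, and Cd79b had fewer than 10 counts in 3 libraries. The promoter of Cd79a is shown because its gene moved most closely with Ms4a1 among the members, and that of Jchain because it stands for the other kind of cell. Both are from RefSeq (GRCm38.p6, 250 bases before the start site and 50 after), and of the members the promoter table also held Cd22 and did not hold Ms4a1, Cd79b, Ighm and Igkc. Capitals mark matches on either strand to 3 motifs, the Ets core AGGAAG, the E-box CACCTG and the EBF site CCCNNGGG. The promoters are those at chr7:24897247-24897546 (plus strand) and chr5:88527848-88528147 (minus strand):
Cd79a: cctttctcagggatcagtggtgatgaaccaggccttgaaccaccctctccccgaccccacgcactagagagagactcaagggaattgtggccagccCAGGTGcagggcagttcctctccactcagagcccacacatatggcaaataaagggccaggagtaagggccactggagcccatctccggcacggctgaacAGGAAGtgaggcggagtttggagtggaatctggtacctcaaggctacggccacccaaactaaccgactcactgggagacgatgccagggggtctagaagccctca
Jchain: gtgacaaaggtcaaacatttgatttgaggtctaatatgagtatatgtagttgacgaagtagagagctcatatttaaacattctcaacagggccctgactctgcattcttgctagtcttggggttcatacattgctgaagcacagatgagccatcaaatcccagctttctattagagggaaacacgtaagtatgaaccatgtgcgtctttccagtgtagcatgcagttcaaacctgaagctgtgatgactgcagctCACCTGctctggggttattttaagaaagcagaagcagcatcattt
The Cd79a window held 1 Ets match, at -55 from the start site, and 1 E-box match, at -154. The Jchain window held 1 E-box match, at 5 bases after the start site. Among 32817 promoters of the same length, 35.4% held the Ets letters, 20.2% the E-box and 13.7% the EBF letters. The octamer ATGCAAAT, a motif known from immunoglobulin promoters, was held by 1.74% of them and by neither window.

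Cd22, an inhibitory co-receptor of B cells (ENSMUSG00000030577, chr7:30865402-30880342, minus strand, overlapped by Gm29439), ran from 0.182 CPM through a median of 3.25 CPM to 30.3 CPM. DO414 was highest and DO227 lowest. DO476 ranked 6th, so the mouse highest for the other receptor genes was again near the top.

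Ighm, the constant region of the mu heavy chain (ENSMUSG00000076617, chr12:113418558-113422730, minus strand), was the most abundant member, with 8.38 CPM in the lowest mouse, 109.1 CPM in the median mouse and 2348 CPM in the highest. Gene-level counts do not separate its membrane form, made by B cells, from its secreted form. DO098 was highest, and DO476 ranked only 65th for Ighm.

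Igkc, the constant region of the kappa light chain (ENSMUSG00000076609, chr6:70726435-70726966, plus strand, overlapped by Gm30211), ran from 1.15 CPM through a median of 23.4 CPM to 2271 CPM. Jchain, the joining chain (ENSMUSG00000067149, chr5:88519809-88527891, minus strand), ran from 0.238 CPM through 7.52 CPM to 623.6 CPM. DO098 was highest for both, as it was for Ighm and Cd3e. The surface immunoglobulin of B cells has light chains too, so Igkc counts do not separate B cells from antibody-secreting cells. These were the most variable members: the SD of log2 CPM was 1.82 for Igkc and 1.88 for Jchain, against 1.16 to 1.23 for Ms4a1, Cd79a, Cd79b and Cd22 and 1.41 for Ighm. The 95th percentile stood 55.3 times above the 5th for Igkc and 81.9 times for Jchain.

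**Figure D1:**
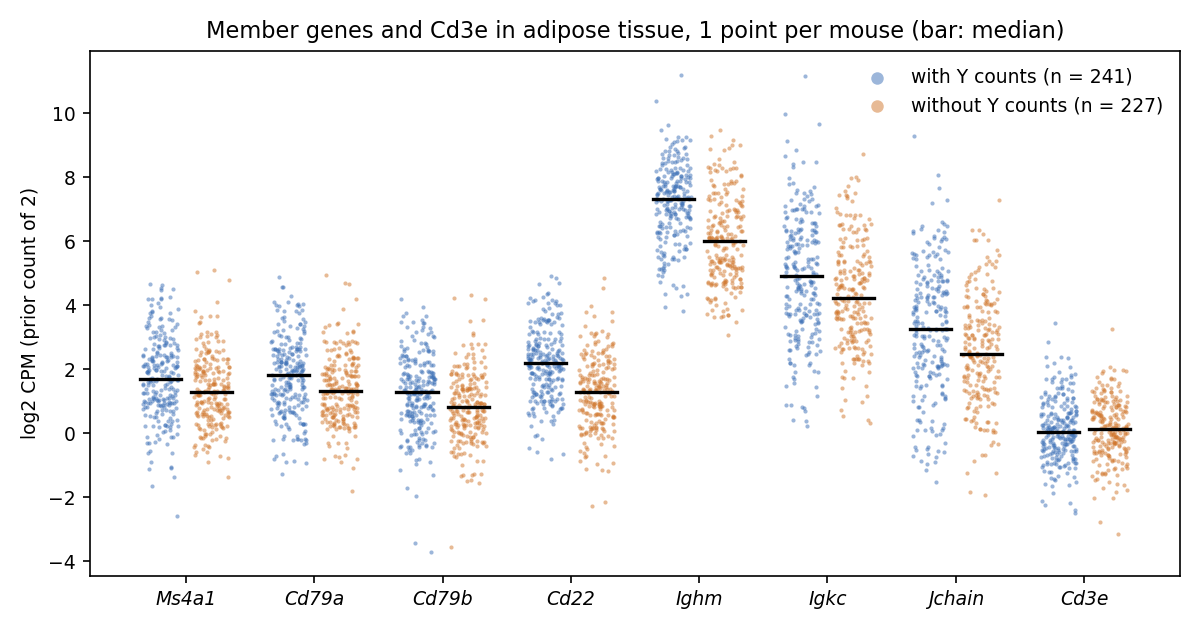
Level of each member and of Cd3e in log2 CPM (prior count of 2), with 1 point per mouse, split into libraries with and without Y chromosome counts, and a bar at each median. Ighm and Igkc lie highest, Igkc and Jchain spread most, and the medians of the 7 members, unlike that of Cd3e, are higher in the libraries with Y counts.

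Per kilobase of annotated exon, the order of the median levels was Ighm (57.9 CPM per kb), Igkc (44.04), Jchain (2.99), Cd79a (1.95), Cd79b (1.41), Cd22 (0.644), Ms4a1 (0.455) and Cd3e (0.253). Ighm and Igkc did not keep an order, since Ighm was the higher in 49.15% of the mice. Igkc exceeded Jchain in every mouse, and Jchain exceeded Cd79a in 66.24% of them. Cd79a exceeded Cd79b in 91.24% of the mice, Cd79b exceeded Cd22 in 92.09%, Cd22 exceeded Ms4a1 in 72.01% and Ms4a1 exceeded Cd3e in 76.28%. The exon length of Ms4a1 includes introns retained in annotated transcripts, which lowers its value per kilobase. Lengths were joined over all annotated transcripts for every gene, so other values may be lowered too and the order depends on the annotation.

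The B cell members rose and fell together across mice. Ms4a1, Cd79a and Cd79b formed the tightest group, with Pearson's r of log2 CPM of 0.950 between Ms4a1 and Cd79a, 0.931 between Cd79a and Cd79b and 0.921 between Ms4a1 and Cd79b. Cd22 followed them less closely (r = 0.782 with Ms4a1, 0.792 with Cd79a and 0.805 with Cd79b). Ighm was the loosest of the 5, at 0.624 with Ms4a1 and 0.730 with Cd22. The 10 pairs had a median r of 0.787.

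The 2 antibody-secreting members were nearly interchangeable, with r = 0.969 between Igkc and Jchain (rho = 0.972). The 10 pairs of a B cell member with Igkc or Jchain lay lower, from 0.586 for Cd22 with Jchain to 0.711 for Cd79a with Igkc (median 0.638). Ighm stood at 0.647 with Igkc and 0.611 with Jchain, close to its r of 0.624 with Ms4a1. The p of every one of the 21 pairs was 1e-05 (two-sided permutation test of 100000 resamples, for r and for rho, over all mice), the smallest the test can give, and it was 1e-05 after Benjamini-Hochberg adjustment over the 30 relations computed. Whether one r differed from another was not tested.

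These relations were also present within each set of libraries. The 10 B cell pairs ran from 0.563 to 0.953 in the libraries with Y counts and from 0.680 to 0.943 in those without, Igkc with Jchain stood at 0.975 and 0.958, and the mixed pairs ran from 0.605 to 0.719 and from 0.521 to 0.692. Without the 2 libraries farthest from the median in Cd3e, the B cell pairs ran from 0.620 to 0.951 and the mixed pairs from 0.578 to 0.705.

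**Figure D2:**
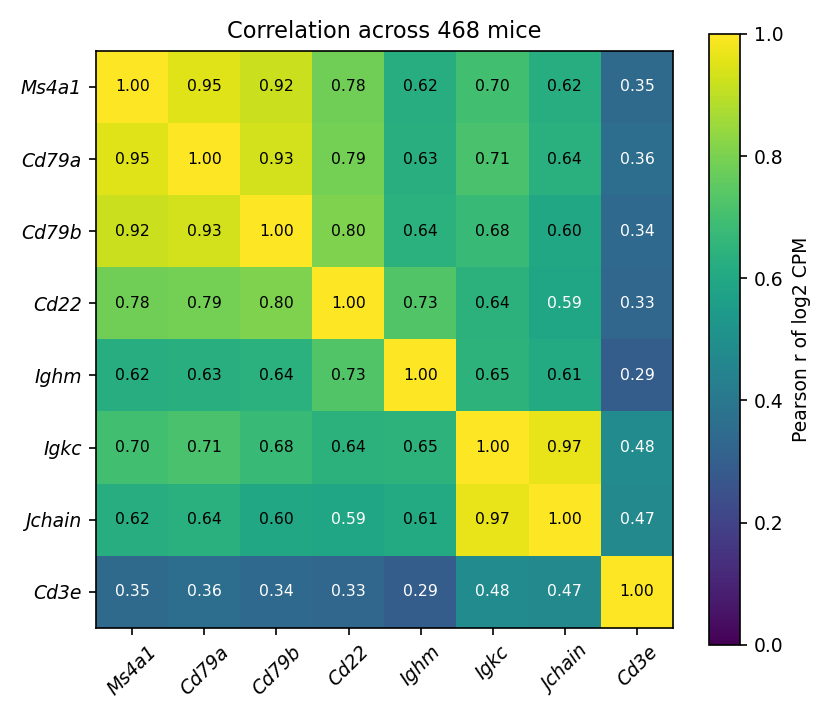
Pearson's r of log2 CPM across all mice for every pair of members and Cd3e, from 0 (dark) to 1 (bright). Ms4a1, Cd79a and Cd79b form a block above 0.92, Igkc and Jchain a block at 0.969, and the row of Cd3e is the darkest, between 0.295 and 0.483.

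In single mice the 2 kinds of signal could stand apart, though not always for both Igkc and Jchain. DO476 had the highest Ms4a1 (34.4 CPM), Cd79a (30.4 CPM) and Cd79b (19.7 CPM) of all mice but only 2.09 CPM of Jchain, below the median mouse. Its Igkc, at 40.66 CPM, was above the median mouse. DO348 had 27.6 CPM of Ms4a1, the 3rd highest, with 11.3 CPM of Jchain and 69.05 CPM of Igkc. Both of the latter are above the median mouse, so the 2 kinds did not stand apart in DO348. DO089 had 5.65 CPM of Ms4a1, above the median mouse. Its Jchain, at 0.324 CPM, and its Igkc, at 7.73 CPM, were below the median mouse. At the other end, DO520 had 0.895 CPM of Ms4a1, below the median mouse, with 52.4 CPM of Jchain and 156.7 CPM of Igkc. DO093 had 1.16 CPM of Ms4a1 and 48.4 CPM of Jchain.

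Other mice were high in both. DO098 had 623.6 CPM of Jchain and 2271 CPM of Igkc with 10.2 CPM of Ms4a1, which ranked 39th. DO109 had 23.4 CPM of Ms4a1, 267.5 CPM of Jchain and 999 CPM of Igkc, so it was in the first 6 mice for each of them.

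**Figure D3:**
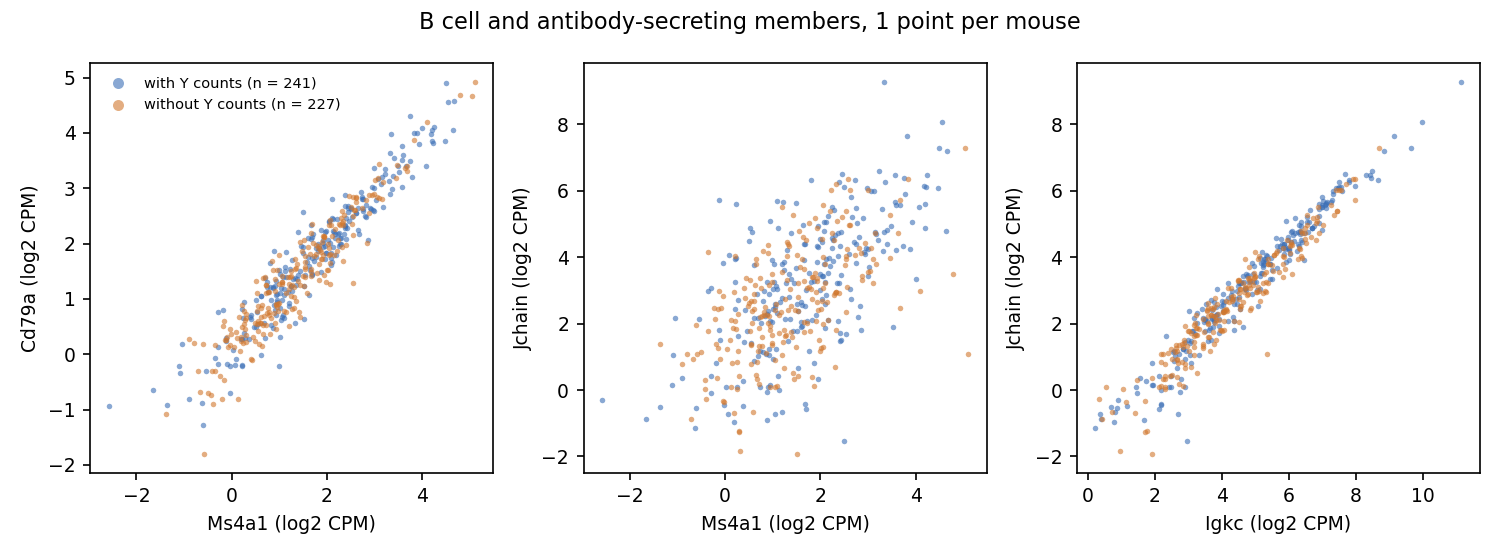
Log2 CPM of Cd79a against Ms4a1 (left), Jchain against Ms4a1 (centre) and Jchain against Igkc (right), with 1 point per mouse coloured by the presence of Y chromosome counts. The left and right clouds are narrow (r = 0.950 and 0.969) and the centre cloud is wide (r = 0.624).

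The genome-wide slopes gave the size of these relations. In a quasi-likelihood fit (edgeR) of all genes on the log2 CPM of Ms4a1, 43.9% of the genes tested were called in either direction at an adjusted p under 0.05 (20.12% as rising), and 6 of the 6 other members were called, all of them rising. Their median slope was 0.88 log2 units for each doubling of Ms4a1, against a median of 0.0011 over all genes. Igkc had a slope of 1.01 ± 0.049 (SE), Jchain 0.95 ± 0.052, Cd79a 0.89 ± 0.013, Cd79b 0.86 ± 0.016, Cd22 0.67 ± 0.028 and Ighm 0.56 ± 0.039. Igkc and Jchain thus had the steepest slopes although their r with Ms4a1 was below that of Cd79a, Cd79b and Cd22. Ighm had the shallowest slope here and also by limma on log2 CPM (0.72, against 0.77 for Cd22). By limma on the deposited VST values its slope was 1.08, above Cd79a at 0.91, Cd22 at 0.81 and Cd79b at 0.80. There Ms4a1 was also in VST values, so these slopes are not per doubling of its CPM.

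In the fit on Jchain, 48.6% of genes were called in either direction (23.05% as rising) and 6 of the 6 other members were, all rising, with a median slope of 0.37. Igkc rose by 0.91 ± 0.011 log2 units for each doubling of Jchain. The B cell members rose by 0.34 ± 0.022 (Cd22) to 0.39 ± 0.023 (Ms4a1), with Ighm at 0.36 ± 0.023. By limma Ighm stood at 0.46 on log2 CPM, and at 0.61 with both it and Jchain in VST values.

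Cd3e encodes a chain of the T cell receptor complex (ENSMUSG00000032093, chr9:44998740-45009627, minus strand, overlapped by Gm48719 and Gm48720). Its level ran from 0.0892 CPM in DO227 through a median of 1.03 CPM to 10.8 CPM in DO098. It moved with other T cell genes, at r = 0.864 with the kinase Lck, 0.848 with Cd3g, 0.830 with Trbc2 and 0.788 with Cd3d. Trac, the constant region of the alpha chain of the receptor, did not follow it closely (r = 0.165, median 3.78 CPM).

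All 7 members were higher in mice with more Cd3e. The fit on log2 CPM of Cd3e called 23.2% of the genes tested in either direction (10.33% as rising) and 7 of 7 members, all rising, whose median slope was 0.47 against -0.0031 over all genes. The antibody-secreting members had the steepest slopes, 0.99 ± 0.069 for Igkc (adjusted p = 3.02e-36) and 0.95 ± 0.071 for Jchain (adjusted p = 2.8e-32). The B cell members had slopes of 0.47 ± 0.058 (Ms4a1), 0.47 ± 0.054 (Cd79a), 0.45 ± 0.054 (Cd79b), 0.41 ± 0.052 (Cd22) and 0.47 ± 0.057 (Ighm), with adjusted p from 4.51e-15 to 1.81e-12. By limma on log2 CPM the slopes were 0.92 for Igkc, 0.92 for Jchain, 0.43 for Ighm and 0.42 for Cd22. By limma on VST values they were 1.77, 1.55, 0.95 and 0.61 in the same order. There Cd3e was also in VST values, so these slopes are not per doubling of its CPM.

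As correlations, Igkc and Jchain stood at r = 0.483 and 0.470 with Cd3e, and Ms4a1 at 0.346, Cd79a at 0.361, Cd79b at 0.342, Cd22 at 0.328 and Ighm at 0.295. Spearman's rho was 0.443 and 0.439 for Igkc and Jchain and 0.266 to 0.336 for the B cell members. Each had a permutation p of 1e-05. The unequal slopes were tested with log2 differences. Ms4a1 minus Igkc fell with Cd3e (r = -0.349, rho = -0.336, permutation p = 1e-05), and so did Ms4a1 minus Jchain (r = -0.312, rho = -0.308, permutation p = 1e-05). Mice with more Cd3e transcript thus had more Igkc and Jchain for their Ms4a1. Igkc and Jchain also varied more, with an SD of log2 CPM of 1.82 and 1.88 against 1.23 for Ms4a1. The differences can fall with Cd3e from that wider spread alone, so they do not show a closer relation to Cd3e.

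The relation to Cd3e held without its extreme mice. Leaving out DO098 and DO227, the 2 libraries farthest from the median of Cd3e, r ran from 0.267 to 0.461 over the members, and the differences stood between -0.321 and -0.293. In the libraries with Y counts r ran from 0.324 to 0.542, and in those without from 0.254 to 0.426. In 5 blocks of consecutive mouse numbers, r of Igkc with Cd3e ran from 0.358 to 0.580, that of Jchain from 0.373 to 0.568 and that of Ms4a1 from 0.213 to 0.487. It was lowest for Cd22 and Ighm, at 0.011 and 0.039 in the weakest block. In 5 blocks of library numbers the lowest values were 0.131 for Ighm and 0.182 for Cd22.

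**Figure D4:**
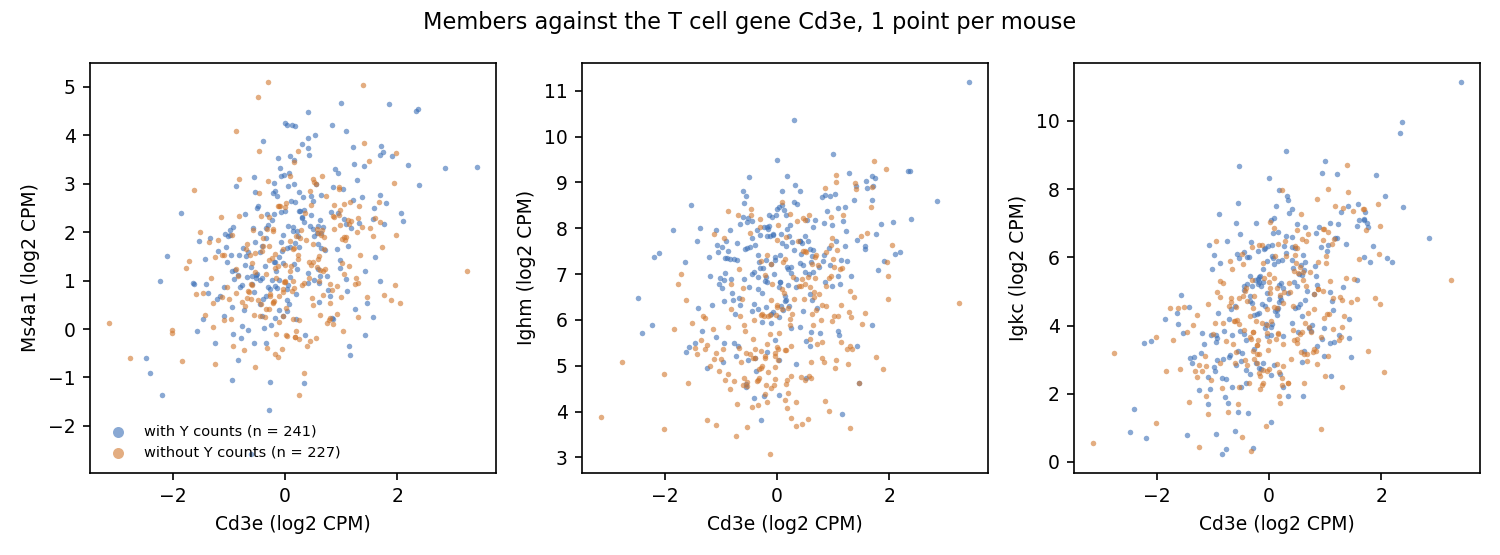
Log2 CPM of Ms4a1 (left), Ighm (centre) and Igkc (right) against Cd3e, with 1 point per mouse coloured by the presence of Y chromosome counts. The rise is steeper for Igkc (edgeR slope 0.99) than for Ms4a1 (0.47) or Ighm (0.47). The r is 0.483 for Igkc, 0.346 for Ms4a1 and 0.295 for Ighm, and DO098 is the point at the top right of the Igkc panel.

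The members were not called with either number that orders the labels. The fit on mouse number, from 21 to 560, called 23.6% of all genes in either direction and 0 of 7 members, and 0 of 7 had an unadjusted p under 0.05 in that edgeR fit. With limma, 0 of 7 were called and 1 had an unadjusted p under 0.05. The fit on library number called 0.31% of all genes and 0 of 7 members, 0 of 7 at an unadjusted p under 0.05 and likewise 0 of 7 by limma.

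The members' levels were higher in the libraries with Y counts, read as those of males, which is described here without a test. The ratio of the medians was 2.49 for Ighm (159.5 CPM against 64 CPM) and 1.85 for Cd22 (4.50 against 2.43 CPM). It was 1.31 for Ms4a1, 1.42 for Cd79a, 1.40 for Cd79b, 1.62 for Igkc and 1.70 for Jchain. For Cd3e it was 0.936. The macrophage genes moved in the same direction: the summed level of 8 such genes had a median of 1277 CPM with Y counts (range 266.95 to 5366 CPM) and 927 CPM without (365.65 to 2710 CPM).

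Cd22 and Ighm also moved with macrophage transcripts, whose part in these levels was not tested. Adgre1, the macrophage gene for F4/80, had r = 0.535 with Cd22 and 0.484 with Ighm, but 0.173 with Ms4a1, 0.162 with Cd79a, 0.244 with Cd79b, 0.203 with Igkc and 0.202 with Jchain. Within the libraries with Y counts the values were 0.412 for Cd22, 0.276 for Ighm and 0.012 for Ms4a1. Without Y counts they were 0.50, 0.513 and 0.302. With Adgre1 in the model, the slopes of the 7 members on Cd3e had a median of 0.44, and all 7 were called as rising.

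Other genes of these cells were counted by list, to be read against the 20.12% of all genes tested that rose with Ms4a1, 23.05% with Jchain and 10.33% with Cd3e. Of 11 B cell surface and receptor genes, 5 of them members, 11 of 11 rose with Cd3e and the 10 besides Ms4a1 rose with Ms4a1. Cd72, a B cell surface protein, was the loosest, at r = 0.281 with Ms4a1. Of 7 B cell transcription factors, 6 rose with Ms4a1, with a median slope of 0.62. The exception was Ebf1 (slope -0.004 ± 0.0099, adjusted p = 0.783), a B cell factor that adipocyte lineage cells also express, with a median of 145.2 CPM.

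Of 11 genes of B cell receptor signalling, 11 rose with Ms4a1 and 7 with Cd3e, with smaller median slopes of 0.15 on each. Blk, a kinase of B cells, had r = 0.882 with Ms4a1, whereas Syk and Lyn, kinases that myeloid cells share, had 0.321 and 0.257. Of 20 genes of antibody-secreting cells, 17 of the 19 tested rose with Jchain and 1 fell, 15 of 20 rose with Ms4a1 and 1 fell. The gene that fell with each was Irf4, a factor of plasma cells and other cells, at a slope of -0.43 ± 0.060 on Ms4a1 (adjusted p = 1.44e-10) and -0.22 ± 0.050 on Jchain (adjusted p = 7.09e-05).

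The genes whose pattern was most like Ms4a1 over all mice included Pax5 (r = 0.937), Spib (0.912), Cxcr5 (0.895) and Pou2af1 (0.884). The 5 most like Jchain, members left out, were Mzb1 (0.809), Iglc2 (0.799), Iglv1 (0.763), Pou2af1 (0.759) and Igkv1-135 (0.739). Pax5 is the commitment factor of B cells, and Mzb1 is a chaperone of immunoglobulin assembly. Pou2af1 was among the 5 most alike genes for both Ms4a1 and Jchain.

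Of the genes known to draw or sustain B cells, Cxcl13, the ligand of Cxcr5, had r = 0.630 with Ms4a1 and 0.588 with Jchain (median 3.80 CPM). Tnfsf13b, which encodes BAFF, had r = 0.014 with Ms4a1 and 0.018 with Jchain. Of 7 lymph node and follicle genes past the filter, 6 rose with Ms4a1, 7 with Jchain and 5 with Cd3e, against 20.12%, 23.05% and 10.33% of all genes. Ccl21a, a chemokine of lymph node stroma, had r = 0.194 with Ms4a1, and Glycam1 was not held by the table.

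The immunoglobulin genes themselves showed which antibody classes the transcripts belonged to. The table held 139 immunoglobulin rows, 33 of them past the filter, and their summed level had a median of 182.1 CPM. Reads shared between near-identical segments are divided by expectation maximization, and founder strains differ at these loci, so values of single segments and of Ighg2b and Ighg2c are uncertain. Of the 50-base windows of the annotated transcripts, none of Ighm, Igkc or Jchain occurred in another gene, and 5.49% of those of Ighg2c occurred in Ighg2b.

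Ighm made up most of the heavy chain constant counts in nearly all mice. Its share was 16.9% in the lowest mouse, 86.1% in the median mouse and 99.1% in the highest, and it was the most abundant class in 96.58% of the mice. The 4 Ighg genes together took a median of 5.92% and up to 80.3%, in DO228. Igha took a median of 3.10% and up to 69.8%, in DO310. Of the light chain constant counts Igkc took a median of 91.01%, and the lowest share was 55.8%, in DO465.

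The switched classes moved more with Jchain than with Ms4a1. Ighg2c had r = 0.701 with Jchain and 0.396 with Ms4a1, Ighg1 had 0.618 and 0.451, and Igha had 0.594 and 0.247. Ighd, the class that resting B cells carry on their surface, went the other way, with 0.461 and 0.714. In DO098, the mouse with the most Igkc and Jchain, Ighm took 55.1% and the Ighg genes 40.5% of the heavy chain constant counts. In DO476, the mouse with the most Ms4a1, Ighm took 93.6% and the Ighg genes 2.11%.

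In a few mice Ighm was abundant with little light chain. The ratio of Ighm to the summed light chain constant genes, in CPM, had a median of 3.14 and ran from 0.363 to 165.5. It was above 50 in 7 mice, 6 of them with Y counts. DO213 had 248.5 CPM of Ighm with 1.15 CPM of Igkc, 0.426 CPM of Jchain and 0.621 CPM of Ms4a1. DO194 had 303.1 CPM of Ighm and the lowest Ms4a1 of all mice. DO378 had 556.7 CPM of Ighm with 4.57 CPM of Igkc. Across mice the log2 ratio had r = -0.628 with Jchain, -0.280 with Ms4a1 and 0.233 with Adgre1, the last being 0.070 within the libraries with Y counts and 0.310 within those without. Igkc is most of the divisor and had r = 0.969 with Jchain, so the negative r with Jchain is partly built into the ratio.

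The heavy and kappa variable segments also varied from mouse to mouse, and gene-level counts do not link a segment to a constant region. The table held 58 heavy and 63 kappa variable segments, and across their 3654 pairs the median r was 0.392 and the 99th percentile 0.578. The ends of 4 segments, chosen after their values were seen because they form the 2 most correlated pairs in log2 CPM, are shown from the reference transcripts of GENCODE M21. Each run holds the last 90 bases of the segment, with the codons that end at the conserved cysteine in capitals. On GRCm38 the runs lie at chr12:114048241-114048330 (minus strand), chr6:67896553-67896642 (plus strand), chr12:114612243-114612332 (minus strand) and chr6:70386672-70386761 (minus strand), within the variable exon of each gene:
Ighv11-2: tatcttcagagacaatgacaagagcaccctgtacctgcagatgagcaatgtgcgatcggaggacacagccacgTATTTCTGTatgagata
ENSMUSG00000094345: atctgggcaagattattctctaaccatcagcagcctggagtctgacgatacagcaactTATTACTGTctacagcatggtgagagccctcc
Ighv1-11: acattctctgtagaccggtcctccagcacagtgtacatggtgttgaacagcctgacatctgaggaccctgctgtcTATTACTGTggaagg
Igkv8-16: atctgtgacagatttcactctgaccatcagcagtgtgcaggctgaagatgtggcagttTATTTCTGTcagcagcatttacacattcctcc
ENSMUSG00000094345 is a kappa segment of the Igkv14 family, given here by its identifier in the files and labelled by its symbol in the plot of the pairs. Ighv11-2 and this segment are known as the pair used by B-1 cells that bind phosphatidylcholine, a class of natural IgM. They had the highest r of all pairs in log2 CPM, 0.923 (rho = 0.918), although on VST values their r of 0.958 was below the 0.965 of Ighv1-11 with Igkv8-16, while the next kappa segment for Ighv11-2 had 0.518. Ighv11-2 had a median of 0.327 CPM and a highest value of 64.3 CPM in DO487, with 0 counts in 30 libraries. ENSMUSG00000094345 had a median of 0.588 CPM and a highest value of 104.3 CPM in DO546, with 0 counts in 18 libraries. The r was 0.935 in the libraries with Y counts and 0.905 in those without. Of the 50-base windows of Ighv11-2, 38.6% also occur in Ighv11-1, and none of those of ENSMUSG00000094345 occur elsewhere.

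Both segments of this pair moved with Ighm (r = 0.558 and 0.590), Ms4a1 (0.546 and 0.574) and Jchain (0.520 and 0.569), and less with Igha (0.10 and 0.132). ENSMUSG00000094345 was the most abundant kappa variable segment in 22.22% of the mice, with a median share of 4.34% of the kappa variable counts and up to 78.1%. Ighv12-3 and Igkv4-91, another pair known from B-1 cells, had r = 0.745 (rho = 0.641), the third place among the pairs. Neither of them passed the filter.

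Ighv1-11 and Igkv8-16 were different in kind. Their r was 0.918 (rho = 0.804) over all mice, 0.960 in the libraries without Y counts and 0.486 in those with. Neither segment passed the filter, and their medians were 0.0142 and 0.0640 CPM. Many libraries thus had few or no counts of them, and these r rest in part on such values. Igkv8-16 was the most abundant kappa variable segment in 61 mice without Y counts, 26.87% of that set, and in 0 mice with them. Its share of the kappa variable counts had a median of 4.09% and reached 86.1% without Y counts, and the highest share with Y counts was 4.98%. These mice were spread over the mouse numbers, with 11 of 48, 16 of 46, 15 of 50, 13 of 47 and 6 of 36 libraries without Y counts in 5 successive blocks of mouse numbers.

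The class that went with this pair was Ighg3. Among all genes of the table, in the libraries without Y counts, the genes most like Igkv8-16 were Ighv1-11 (r = 0.960) and Ighg3 (0.782). Igkc (0.559), Pou2af1 (0.525), Ms4a1 (0.511) and Cd79a (0.501) followed. Over all mice r of Igkv8-16 was 0.662 with Ighg3 and 0.071 with Ighm. In DO228, Igkv8-16 took 86.1% of the kappa variable counts, Ighv1-11 took 89.7% of the heavy variable counts and Ighg3 took 79.9% of the heavy chain constant counts. In DO169 the same shares were 83.8%, 90.03% and 61.4%, and in DO245 they were 71.4%, 75.8% and 39.1%. Ighg3 exceeded 20% of the heavy chain constant counts in 20 mice, 19 of them without Y counts, and Igkv8-16 led the kappa segments in 15 of the 20.

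Of the 50-base windows of Igkv8-16, 65.3% also occur in the segment Gm43218, and none of those of Ighv1-11 occur in another annotated gene. The pairing and its limits to 1 set of libraries were noticed in these data and were not tested. In Ms4a1 and Jchain these mice lay within the range of the others: DO228 had 5.79 CPM of Ms4a1 and 41.9 CPM of Jchain, DO169 had 1.37 and 5.71 CPM, and DO245 had 3.12 and 4.13 CPM.

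**Figure D5:**
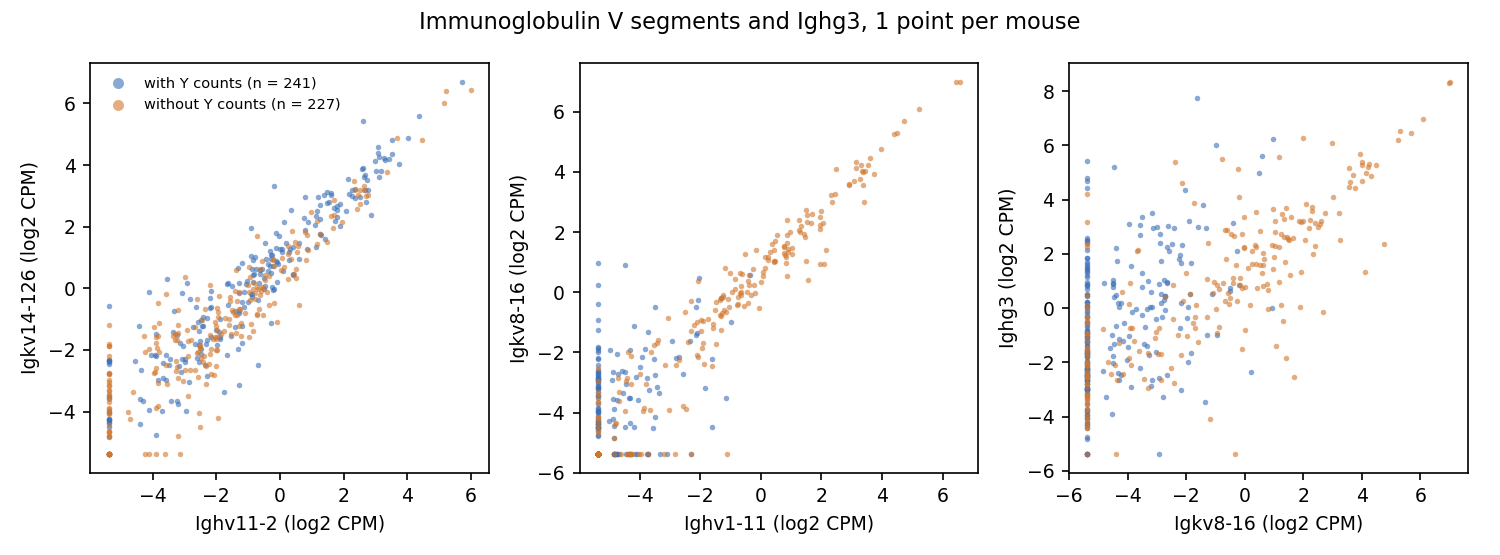
Log2 CPM of ENSMUSG00000094345, the kappa segment of the Igkv14 family, against Ighv11-2 (left), Igkv8-16 against Ighv1-11 (centre) and Ighg3 against Igkv8-16 (right), with 1 point per mouse coloured by the presence of Y chromosome counts. Points at the left and lower edges have 0 counts, both colours run along the left cloud (r = 0.923), and the upper part of the centre cloud holds only libraries without Y counts.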

How the data were processed

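Adipose RNA was isolated from frozen tissue, polyadenylated RNA was made into libraries with an mRNA HyperPrep kit after addition of a spike-in mix, and the reads were quantified by the authors with EMASE (run by GBRS) against a transcriptome joining the founder strains, with the reads of a pair aligned as single ends. Versions of EMASE and GBRS, and whether strand was used, were not given in the sources used here, while the processing notes of the submitters name GRCm38. The main table deposited by the authors holds an expected count for each gene, fractional where reads were divided between transcripts. The authors kept genes with 1 read or more in a large share of samples, so the variable segments in the table are a part of the repertoire. A second table deposited by the authors has the counts after DESeq2's variance stabilizing transformation (VST), on a log2 scale, which served as an alternative.

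Here CPM was computed from the expected counts with TMM factors of edgeR 4.0.16 (0.580 to 1.36), and log2 CPM used a prior count of 2. Genes with 10 counts or more in 50% of the libraries or more were tested. Expected counts were rounded and fitted with edgeR's quasi-likelihood test (R 4.3.3), with the log2 CPM of Cd3e, Ms4a1 or Jchain, the mouse number or the library number (per 100) as the slope, and p-values were adjusted by Benjamini-Hochberg over all genes tested. The script was tested on simulated data. Correlations were tested with 100000 permutations (two-sided). Alternatives were limma 3.58.1 on log2 CPM and on VST values, DESeq2 1.42.0 and its size factors, no filter, Xist and Y chromosome genes in the model, and counts capped at the 99th percentile of each gene. Intervals over mice cover differences between animals and the assay together.

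All libraries formed 1 group, since the labels give no sex, generation or batch. The members, Cd3e and the gene lists were chosen with earlier results of these data known. Genes were named if they were members, belonged to a list, or were among the 5 genes with the highest r with Ms4a1 or Jchain (1 of which is not reported here), and variable segments, further immunoglobulin genes and single mice were named after their values were seen. Gene positions came from the deposited annotation (99.2% matched GENCODE M21), promoters from RefSeq, and variable segments from GENCODE M21.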

Additional observations from a re-analysis of the deposited data

How the results depend on the processing

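The slopes of the members on Cd3e, Ms4a1 and Jchain, their correlations and their median levels kept their direction and their side of the threshold under every alternative run, including limma, VST values, DESeq2 size factors, Xist and Y chromosome genes in the model, and leaving out the 46 libraries with the lowest totals. Sizes moved by more than 1.5 times only by limma on VST values, for the slopes of Ighm on Cd3e, Ms4a1 and Jchain (0.95, 1.08 and 0.61) and of Igkc (1.77), Jchain (1.55) and Cd22 (0.61) on Cd3e. In that setting Cd3e, Ms4a1 and Jchain as covariates were also in VST values, so its slopes are in other units. Shares of genes called over the whole table moved for the order of the labels. With Xist and Y chromosome genes in the model, 12.54% of the genes tested were called with mouse number, against 23.63%. With library number 0.3101% were called (57 genes), and 0.0% by limma on log2 CPM, 0.0% by limma on VST values, 0.7161% without the filter and 0.01632% with capped counts (3 genes).

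Slopes on these numbers, none of them past the threshold, changed sign in some settings. On mouse number (log2 units per 100), with Xist and Y chromosome genes in the model, Ms4a1 stood at -0.018, Cd79b at -0.019 and Cd22 at -0.026. Igkc was at 0.095 by limma, 0.042 with capped counts and 0.083 on VST values, and Jchain at 0.12, 0.043 and 0.083. On library number Igkc was at 0.056, 0.023 and 0.043 and Jchain at 0.049, 0.024 and 0.033 in the same order. The cause was not tested.

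The r of the variable segments, for which alternatives were added after seeing the data, was 0.958 on VST values and 0.894 with a prior count of 0.5 for Ighv11-2 with ENSMUSG00000094345, and 0.965 and 0.874 for Ighv1-11 with Igkv8-16, so the first place among these pairs passed to the latter on VST values. Cd79b and Cd3e had under 10 counts in 3 and 2 libraries, where counting error weighs most. No paired analysis was possible because the libraries form 1 group with 1 library per mouse.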

Other observations

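Irf4 varied widely and fell with Jchain (edgeR slope -0.22 ± 0.050, adjusted p = 7.09e-05). Its median was 18.3 CPM with a mean of 68.5 ± 171.1 CPM (SD over all mice), and its r was -0.090 with Jchain and -0.159 with Ms4a1. Genes that plasma cells use in bulk, Xbp1 (median 152.9 CPM), Txndc5 and Fkbp11 (1.64 CPM), had r of 0.046, 0.150 and 0.109 with Jchain, whereas Mzb1 had 0.809. The other listed genes of antibody-secreting cells outside the immunoglobulin genes lay between, at 0.470 (Tnfrsf13b), 0.405 (Prdm1), 0.270 (Derl3), 0.237 (Tnfrsf17) and 0.111 (Eaf2).

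Markers of other tissues that could enter a dissection were examined beside the members. Of 4 mesothelial genes, 4 rose with Ms4a1 and 1, Krt19, with Jchain. Krt19 had r = 0.242 with Ms4a1 and 0.263 with Jchain, and Upk3b had 0.123 and 0.033. Of 4 genes of plasmacytoid dendritic cells tested, 3 rose with Ms4a1, 3 with Jchain and 3 with Cd3e, with Siglech at r of 0.122 with Ms4a1 and 0.103 with Jchain and Ccr9 at 0.342 and 0.382. Over all genes tested, 20.12% rose with Ms4a1, 23.05% with Jchain and 10.33% with Cd3e, and the part of these cells in the members' levels was not tested. Epcam, an epithelial gene, had r = 0.182 with Ms4a1 and 0.252 with Jchain, and of 6 mammary epithelium genes Csn2, Wap and Krt5 were not held by the table. Of 5 adipocyte genes, 4 fell with Jchain and 2 with Ms4a1, where 4692 and 4377 of the 18379 genes tested fell. Their r ran from -0.205 (Fabp4) to 0.141 (Lep) with Ms4a1 and from -0.298 to 0.041, for the same genes, with Jchain.

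Of 13 T cell genes, 12 rose with Ms4a1 and 12 with Jchain, against 20.12% and 23.05% of all genes. The exception was Trac, which was not called with Ms4a1 (r = -0.043), Jchain (0.073) or Cd3e (0.165). Ltb, a lymphotoxin chain made by B and T cells, had r = 0.668 with Cd3e and 0.680 with Ms4a1.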
